A study of Homo sapiens with 6 samples.

Results

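The mitotic kinases and checkpoint proteins described here are 10 genes whose products carry a cell into mitosis and hold it there until its chromosomes are attached: PLK1, AURKA, AURKB, NEK2, BUB1, BUB1B, TTK, CDC20, CDC25B and CDC25C. The set was chosen by name with earlier results of these data known, so the members' counts below describe the set and are not independent support. A gene counted as a member if it had a value in all 6 libraries. All 10 met that rule, out of 11048 genes listed. The libraries came from MM1.S, an established human multiple myeloma cell line of malignant plasma cells, kept in culture for 6 h with DMSO, the solvent used as vehicle control, with 3 µM CCF642, an inhibitor of the protein disulfide isomerase PDIA1, or with 3 µM CCF642-34, an analogue of it. Each of these 3 groups had 2 libraries of polyadenylated RNA, and the sample titles name no genetic change in any of them. Between 20567313 and 28459677 reads had been assigned per library, and 218 to 7984 of them lay behind each member's value. The deposited unit is CPM, the reads of a gene scaled to a common library total. Nothing in the sample labels says that the libraries came from separate cultures, so every p below measures the spread between these libraries only, which may be technical. In the fit used, the spread taken for a gene comes mostly from other genes of similar level (42.9 prior against 3 residual degrees of freedom). A small p is therefore not a measure of that gene's own replicates alone. All 10 myeloma plasma cell markers were listed, at a sum of 9904 to 10003 CPM with DMSO, 7866 to 7911 CPM with CCF642-34 and 7020 to 7054 CPM with CCF642. The sum followed JCHAIN (4316 to 4321 CPM with DMSO, 2339 to 2357 CPM with CCF642-34 and 1792 to 1875 CPM with CCF642) and SDC1, whereas IRF4 was higher with both compounds (657 to 682, 1355 to 1358 and 1127 to 1147 CPM in the same order), as was SLAMF7, and the part of these changes in the members' values was not tested. Of 7 T and NK cell markers only CD3E (2.09 to 3.19 CPM), of 7 myeloid markers only CD68 (9.87 to 13.4 CPM), and of 9 epithelial, stromal and endothelial markers 4 were listed, the last at a sum of 6.48 to 13.2 CPM. That sum was highest with CCF642 through COL1A1 (8.99 and 10.5 CPM, above its DMSO values), while KRT8 and PECAM1 were at 0.340 and 0.221 and at 2.04 and 1.20 CPM there, below their DMSO values.

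These genes act in sequence. CDC25 phosphatases remove the inhibitory phosphates that WEE1 and PKMYT1 place on CDK1, and active CDK1 with cyclin B starts mitosis, helped by Polo-like kinase 1 and Aurora A, which mature the centrosomes. At the kinetochores, TTK, BUB1 and BUB1B (BubR1) build the spindle assembly checkpoint, which keeps CDC20 from activating the anaphase-promoting complex until every chromosome is attached, while Aurora B corrects faulty attachments. In cycling cells most of these genes are transcribed in G2 and M phase, under the DREAM and MuvB complexes with B-MYB and FOXM1, which reach promoters through an element called the cell cycle gene homology region (CHR) and through CCAAT boxes bound by NF-Y. Since bulk RNA averages over all cells, fewer cells in G2 and M phase and less RNA in each such cell cannot be told apart in any value below.

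RefSeq promoter windows (GRCh38.p14), from 250 bases before to 50 after the annotated start, were available for 8 of the 10 members. The set of windows used here held none for AURKA and TTK. The windows were searched on both strands for the usual CHR letters TTTGAA, for its variant TTCGAA, for the variant TTTAAA and for the CCAAT box. Each motif was counted on its own, and no match printed here shares a base with another. TTTGAA stood in the windows of PLK1, BUB1B, CDC20 and CDC25C, 4 of 8 members, against 15.2% of all 35116 windows and 13.9% of the 8871 listed genes with a window. TTCGAA stood in those of BUB1 and CDC25B, 2 of 8, against 1.45% of windows and 2.39% of listed genes, and TTTAAA in those of PLK1 and CDC25B, against 12.2% and 11.2%. CCAAT was found for 7 of 8, all but BUB1B, against 34.6% of windows and 43.9% of listed genes. The 200 bases before the start are printed for the members with the largest falls that had a window (PLK1 at chr16:23678689-23678888, NEK2 at chr1:211675622-211675821 and BUB1B at chr15:40160869-40161068), for CDC20 at chr1:43358781-43358980, and for both phosphatases, CDC25B at chr20:3796110-3796309 and CDC25C at chr5:138331805-138332004. NEK2 and CDC25C are on the minus strand and the others on the plus strand, and each sequence reads 5′ to 3′ toward its start. The CDC25B and CDC25C windows, the third and the fourth of 4 annotated starts each, are shown because they hold the letters. Capitals mark these motifs on either strand, so that TTCAAA stands for the usual CHR letters and ATTGG for the CCAAT box, each read from the other strand.
PLK1: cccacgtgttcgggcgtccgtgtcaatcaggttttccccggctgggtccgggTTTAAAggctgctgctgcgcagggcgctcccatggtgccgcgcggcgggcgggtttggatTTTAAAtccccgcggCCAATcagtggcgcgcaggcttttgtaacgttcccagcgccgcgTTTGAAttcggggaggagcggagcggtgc
NEK2: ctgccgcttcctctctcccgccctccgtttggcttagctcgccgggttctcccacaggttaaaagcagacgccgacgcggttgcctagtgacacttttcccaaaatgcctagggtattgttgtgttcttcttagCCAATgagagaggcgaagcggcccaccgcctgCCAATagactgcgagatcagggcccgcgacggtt
BUB1B: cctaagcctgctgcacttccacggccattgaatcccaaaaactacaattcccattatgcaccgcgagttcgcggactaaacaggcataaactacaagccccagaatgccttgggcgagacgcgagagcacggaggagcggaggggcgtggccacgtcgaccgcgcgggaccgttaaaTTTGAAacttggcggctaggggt
CDC20: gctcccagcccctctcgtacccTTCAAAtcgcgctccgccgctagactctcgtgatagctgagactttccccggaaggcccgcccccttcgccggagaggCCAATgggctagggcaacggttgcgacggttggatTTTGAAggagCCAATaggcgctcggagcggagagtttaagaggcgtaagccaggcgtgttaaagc
CDC25B: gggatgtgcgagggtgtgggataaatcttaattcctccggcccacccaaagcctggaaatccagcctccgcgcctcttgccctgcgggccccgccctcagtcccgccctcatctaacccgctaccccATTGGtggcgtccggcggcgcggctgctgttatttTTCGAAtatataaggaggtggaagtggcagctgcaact
CDC25C: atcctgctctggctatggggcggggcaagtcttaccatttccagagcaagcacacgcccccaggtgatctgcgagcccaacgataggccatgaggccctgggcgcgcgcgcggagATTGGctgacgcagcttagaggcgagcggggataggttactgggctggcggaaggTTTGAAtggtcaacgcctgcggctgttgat

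In PLK1 the CHR letters TTTGAA lay at bases -29 to -24 counted from the start, in BUB1B at -23 to -18 and in CDC25C at -30 to -25. CDC20 had them at -65 to -60 and, on the other strand, at -178 to -173, with CCAAT between them at -100 to -96 and, nearer the start, at -55 to -51. NEK2 held none of the searched CHR letters in its window but had CCAAT at -66 to -62 and at -34 to -30. These positions describe letters in the reference only, and no binding was measured.

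All 10 members were lower than in DMSO with CCF642-34, and all 10 were lower with CCF642. With CCF642-34, 27.9% of all genes tested were called lower (limma with Benjamini-Hochberg adjusted p under 0.05), and with CCF642 31.3% were. The members' median on the log2 scale was -0.44 with CCF642-34 and -0.63 with CCF642, against 0.0067 and -0.0066 over all genes tested. Fold changes here are differences in log2 of CPM scaled by TMM, a scaling that sets the change of the typical gene near 0, with 1 CPM added. Scaled by library size alone, the median of all genes was -0.078 and -0.13, and those of the members -0.53 and -0.76. All 10 members were still called lower with each compound, where 36.0% of all genes were with CCF642-34 and 42.9% with CCF642. After TMM scaling no treated library overlapped a DMSO library for any member in either comparison, an arrangement that 39.0% of all genes showed toward lower values with CCF642-34 and 40.3% with CCF642. Both comparisons use the same 2 DMSO libraries and so are not independent of each other. PLK1, AURKA, BUB1B and NEK2 were in the lowest 5% of all fold changes with each compound, and 9 of 10 members were in the lowest 25%. Calls of at least 2-fold lower were made for PLK1 alone with CCF642-34, where 1.29% of genes passed that limit, and for PLK1, AURKA and NEK2 with CCF642, where 1.99% did.

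**Figure D1:**
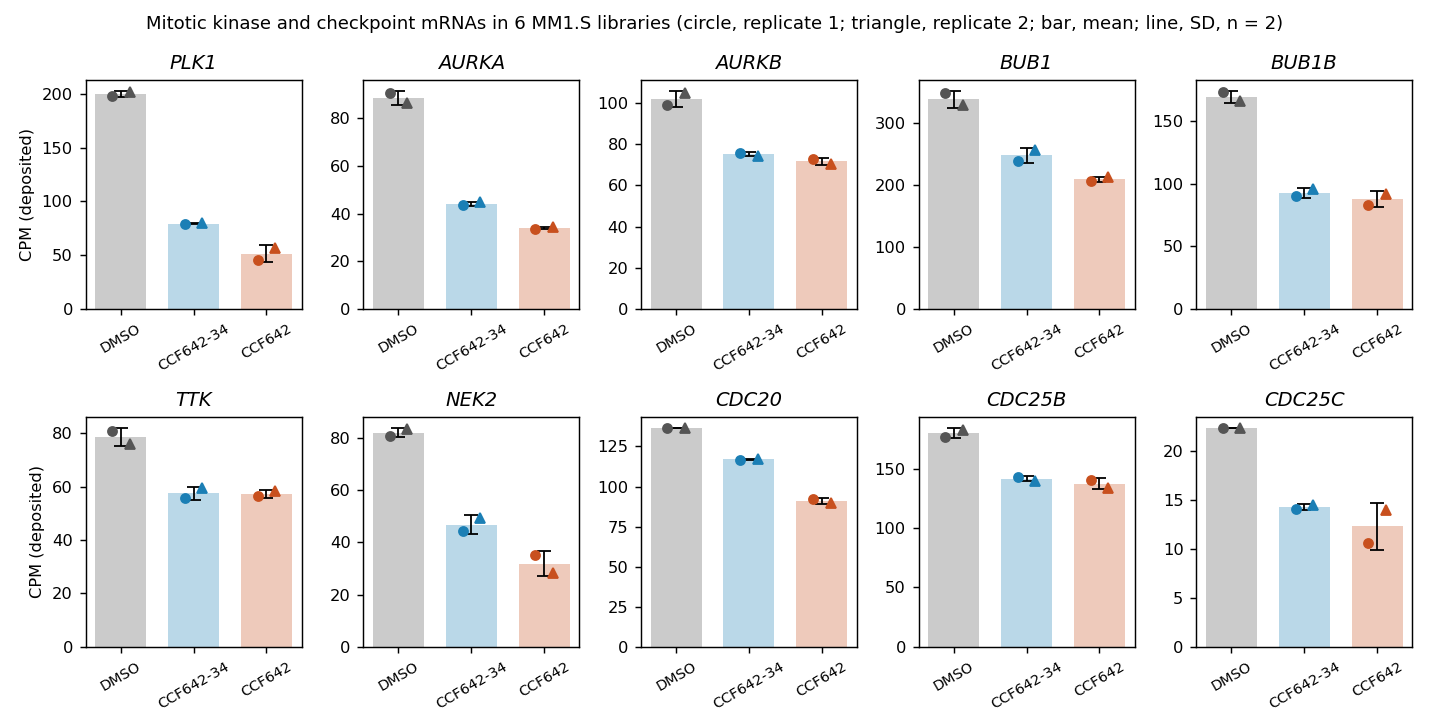
Deposited CPM of each member (vertical axes from 0, a separate scale for each gene) in the DMSO, CCF642-34 and CCF642 libraries, with points for single libraries, bars for group means and lines for the SD (n = 2). In every panel both DMSO points lie above all 4 treated points, and the CCF642 points lie under the CCF642-34 points for PLK1, AURKA, AURKB, BUB1, NEK2, CDC20 and, narrowly, CDC25C.

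Per kilobase of the longest protein-coding transcript in GENCODE release 29, the DMSO libraries held most BUB1 and PLK1 RNA among the members, at 94.4 ± 3.83 and 89.8 ± 1.32 CPM per kb (SD, n = 2). AURKB at 81.3 ± 3.19 and CDC20 at 76.8 ± 0.0062 CPM per kb came next. CDC25B held 50.1 ± 1.22, BUB1B 45.4 ± 1.31, AURKA 39.4 ± 1.31 and NEK2 38.6 ± 0.843 CPM per kb. TTK at 21.1 ± 0.927 and CDC25C at 10.5 ± 0.0081 CPM per kb were the lowest. AURKA and NEK2 were the only neighbours in this order whose libraries overlapped. A member with a high level was therefore not always one with a large fall, since BUB1 and PLK1 had nearly the same level in DMSO and fold changes on the log2 scale of -0.55 and -1.81 under CCF642.

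PLK1, the Polo-like kinase that acts from centrosome maturation to cytokinesis, fell furthest. It measured 198 and 202 CPM in the DMSO libraries, 79.1 and 79.8 CPM with CCF642-34, and 45.8 and 57.2 CPM with CCF642. The 3 groups did not overlap, and the CCF642 libraries were the lowest. Its log2 fold change was -1.23 with CCF642-34 (SE 0.064, adjusted p = 6.61e-22), a 2.35-fold decrease, and -1.81 with CCF642 (SE 0.064, adjusted p = 7.81e-29), a 3.51-fold decrease. Only 0.543% and 0.0996% of all genes had a lower fold change with the respective compound. The difference between the compounds was 0.58 (95% interval 0.45 to 0.71, adjusted p = 4.24e-10), which left PLK1 with CCF642-34 at 150% of its level with CCF642. Its 2 CCF642 libraries were 1.25-fold apart, a gap larger than in 94.3% of the 10311 genes with a mean of at least 50 reads and 5.20 times the counting error. Without CCF642 replicate 1 or replicate 2 the difference between compounds was 0.42 and 0.74. Both values lay outside the 95% interval above. The width of that interval rests mostly on the spread of other genes, so it may be too narrow for PLK1.

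The Aurora kinases did not move alike. AURKA, the centrosomal and spindle Aurora kinase that activates PLK1, measured 90.6 and 86.5 CPM with DMSO, 43.5 and 44.8 CPM with CCF642-34 and 33.6 and 34.3 CPM with CCF642. Again the 3 groups were apart, with CCF642 lowest. AURKA changed by -0.90 with CCF642-34 (SE 0.067, adjusted p = 4.52e-16) and by -1.23 with CCF642 (SE 0.067, adjusted p = 3.49e-21), and its level was 125% of that with CCF642 when CCF642-34 was given (log2 difference 0.33, 95% interval 0.19 to 0.46, adjusted p = 0.000147). AURKB, the kinase of the chromosomal passenger complex at centromeres and the midzone, measured 99.1 and 105 CPM with DMSO, 75.9 and 74.5 CPM with CCF642-34 and 73.0 and 70.3 CPM with CCF642. Both compounds lay under DMSO, and all 4 treated libraries stood close together, with overlap between the compounds after TMM scaling. AURKB changed by -0.34 (SE 0.057, adjusted p = 1.33e-06) and by -0.37 (SE 0.057, adjusted p = 2.67e-07), and the compounds were not called different at 0.025 (95% interval -0.091 to 0.14, adjusted p = 0.784). With each compound the 95% intervals of AURKA and AURKB did not meet.

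NEK2, a kinase that splits the centrosome pair before the spindle forms, measured 80.9 and 83.4 CPM with DMSO, 44.2 and 49.3 CPM with CCF642-34 and 35.3 and 28.5 CPM with CCF642. It ran in the same order as PLK1 and AURKA, with no overlap between the groups. Its log2 fold change was -0.71 with CCF642-34 (SE 0.076, adjusted p = 2.95e-11) and -1.22 with CCF642 (SE 0.076, adjusted p = 4.35e-19). The difference between the compounds was 0.50 (95% interval 0.35 to 0.65, adjusted p = 8.00e-07), or 142% of the CCF642 level. The 2 CCF642 libraries were 1.23-fold apart, with replicate 1 the higher one, whereas replicate 2 was the higher one for PLK1, so neither library was lower for both kinases. Leaving out CCF642 replicate 1 or 2 left the difference at 0.65 and 0.36, still called.

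**Figure D2:**
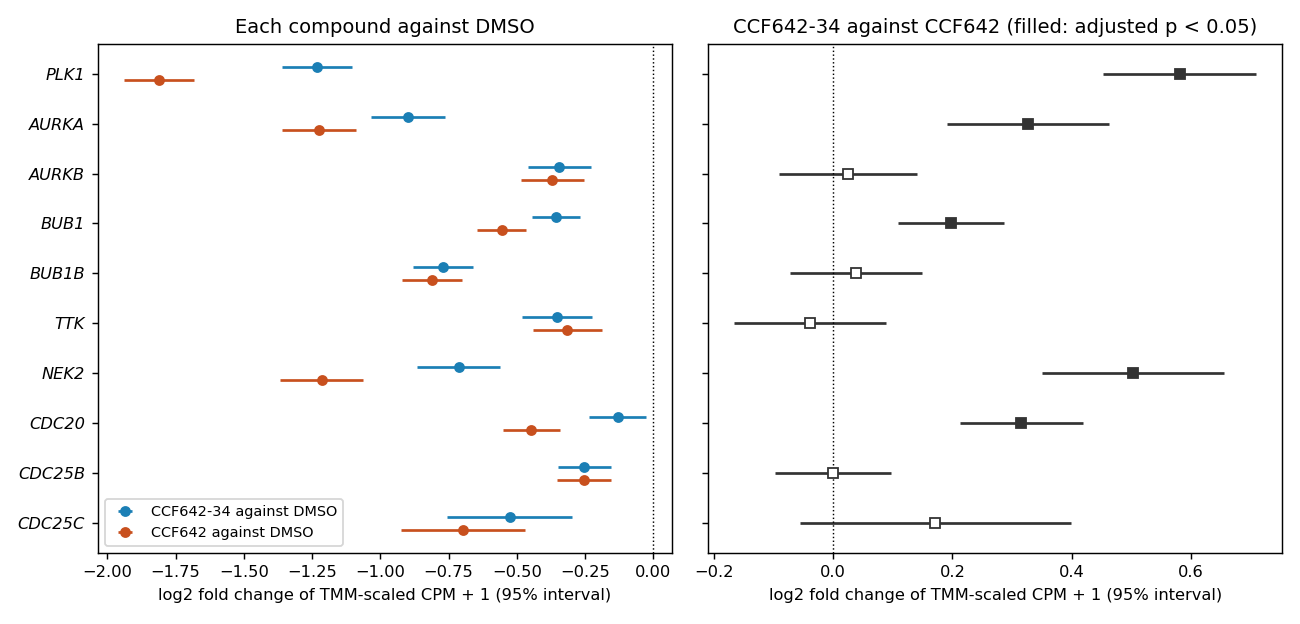
Log2 fold changes of the 10 members (horizontal axes, TMM-scaled CPM + 1, with 95% intervals) for each compound against DMSO on the left and for CCF642-34 against CCF642 on the right, where filled squares have an adjusted p under 0.05. All left-hand intervals lie under 0, PLK1 is farthest out with each compound, and 5 of the 10 right-hand intervals lie above 0.

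Among the checkpoint genes proper, BUB1B had the largest fall. BUB1, which recruits other checkpoint proteins to kinetochores, measured 347 and 328 CPM with DMSO, 239 and 256 CPM with CCF642-34 and 206 and 212 CPM with CCF642. Its groups were apart in that order, and its fold changes were -0.36 with CCF642-34 (SE 0.044, adjusted p = 1.81e-09) and -0.55 with CCF642 (SE 0.044, adjusted p = 2.47e-15). The compounds differed by 0.20 (95% interval 0.11 to 0.29, adjusted p = 0.000414). BUB1B, a part of the mitotic checkpoint complex that holds CDC20, measured 173 and 166 CPM with DMSO, 89.9 and 95.5 CPM with CCF642-34 and 83.2 and 91.9 CPM with CCF642. Here the ranges of the compounds overlapped. BUB1B changed by -0.77 (SE 0.055, adjusted p = 7.73e-17) and by -0.81 (SE 0.055, adjusted p = 8.53e-18), with a difference between compounds of 0.039 that was not called (95% interval -0.072 to 0.15, adjusted p = 0.630).

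TTK, also known as MPS1, the kinase that starts checkpoint signalling at unattached kinetochores, measured 80.9 and 76.1 CPM with DMSO, 55.8 and 59.3 CPM with CCF642-34 and 56.3 and 58.3 CPM with CCF642. The CCF642 libraries lay within the range of the CCF642-34 libraries. TTK changed by -0.35 (SE 0.063, adjusted p = 4.86e-06) and by -0.31 (SE 0.063, adjusted p = 2.79e-05), and it was the only member whose difference between compounds was negative, at -0.038 and at 0.0051 with library size alone (95% interval -0.17 to 0.089, adjusted p = 0.684). CDC20, the activator of the anaphase-promoting complex that the checkpoint restrains, measured 136.5 CPM in both DMSO libraries, 117 CPM in both CCF642-34 libraries, and 92.3 and 89.8 CPM with CCF642. The groups did not overlap, and replicates within each group were nearly equal. CDC20 changed by -0.45 with CCF642 (SE 0.051, adjusted p = 1.90e-10) and by -0.13 with CCF642-34 (SE 0.051, adjusted p = 0.0267), the smallest fall of any member, with 35.4% of all genes lower. That last call was lost when any library of either group was left out, with adjusted p of 0.123 without DMSO replicate 1, 0.127 without DMSO replicate 2, 0.0827 without CCF642-34 replicate 1 and 0.0868 without replicate 2. With library size alone as the scaling the change with CCF642-34 was -0.22. The compounds differed by 0.32 (95% interval 0.21 to 0.42, adjusted p = 3.41e-06), or 124% of the CCF642 level.

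CDC25B and CDC25C, phosphatases that activate CDK1 at mitotic entry, gave the smallest fall with CCF642 and the least precise values. CDC25B measured 177 and 183 CPM with DMSO, 144 and 140.3 CPM with CCF642-34 and 141 and 134 CPM with CCF642. The ranges of the compounds overlapped and both were under DMSO. Its log2 fold change was -0.25 with CCF642-34 (SE 0.048, adjusted p = 1.42e-05) and -0.25 with CCF642 (SE 0.048, adjusted p = 1.16e-05), where library size alone gave -0.34 and -0.39. The difference between the compounds was 0.00023 (95% interval -0.097 to 0.097, adjusted p = 0.997). CDC25C, the member with the fewest reads, measured 22.4 and 22.3 CPM with DMSO, 14.1 and 14.5 CPM with CCF642-34 and 10.6 and 14.0 CPM with CCF642. Both CCF642 libraries were under the CCF642-34 libraries, the second of them only just, and after TMM scaling the compounds overlapped. CDC25C changed by -0.53 (SE 0.113, adjusted p = 9.09e-05) and by -0.70 (SE 0.113, adjusted p = 6.18e-07), and the difference between the compounds, 0.17, was not called (95% interval -0.056 to 0.40, adjusted p = 0.255). Its CCF642 libraries were 1.30-fold apart, and the difference was -0.018 without replicate 1 and 0.36 without replicate 2, where it was called (adjusted p = 0.0178). Exons of CDC25C overlap those of FAM53C on the opposite strand in GENCODE release 29, and FAM53C, named here for that overlap after its values were seen, rose by 0.49 and 0.87. Whether the reads were counted by strand is not given in the sources used here, so the share of FAM53C reads in the CDC25C values was not tested.

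At the same dose and time, CCF642-34 and CCF642 thus gave called differences for PLK1, NEK2, AURKA, CDC20 and BUB1, 5 of the 10 members, all with CCF642-34 higher. Over all genes, 15.9% were called higher with CCF642-34 than with CCF642, and 17.4% lower. After TMM scaling the same 5 members ran from CCF642 through CCF642-34 to DMSO without overlap, an order that 12.7% of all genes showed. The median difference of the members was 0.18, against 0.0093 over all genes, and leaving out CCF642 replicate 1 gave 0.11, and leaving out replicate 2 gave 0.26. For AURKB, BUB1B, TTK and CDC25B no interval reached past 0.17 in either direction, and that of CDC25C ran to 0.40.

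By the median, replicates of the members lay close together. The median gap between the 2 libraries of a group, as a difference in log2 values, was 0.054 for the members in DMSO, 0.059 with CCF642 and 0.037 with CCF642-34, against 0.062, 0.085 and 0.072 over the 10311 genes. With CCF642, PLK1, NEK2 and CDC25C were exceptions, at gaps of 0.32, 0.29 and 0.38. These were larger than in 94.3%, 92.9% and 96.5% of the 10311 genes. Relative to the DMSO mean, every member was lower in each of the 4 treated libraries, with a median of -0.73 and -0.52 in the CCF642 libraries and -0.47 and -0.44 in those with CCF642-34. The 2 CCF642 libraries therefore differed by more in this median than the CCF642-34 libraries did. Some members share sequence with other loci. Processed pseudogenes are annotated for AURKA (AURKAP1 and AURKAP2), BUB1 (BUB1P1), NEK2 (NEK2P2 and NEK2P4) and CDC20 (CDC20P1), exons of PLK1 overlap ERN2 and an antisense gene on the opposite strand, and BUB1B shares exons with the BUB1B-PAK6 readthrough gene. None of these other loci was listed, so the values of these 6 members are uncertain by whatever reads the counting gave or lost to them.

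The partners of the Aurora kinases were lower too. Of 7 listed partners and activators, 6 fell and 0 rose with CCF642-34 (median -0.52), and 5 fell and 0 rose with CCF642 (median -0.46). The chromosomal passengers that carry Aurora B were among them, namely survivin (BIRC5, -0.82 and -1.01 with CCF642-34 and CCF642), borealin (CDCA8, -0.74 and -0.96) and INCENP (-0.62 and -0.81), all with larger falls than AURKB itself. For comparison, 27.9% of all genes tested were called lower and 29.7% higher with CCF642-34, and 31.3% and 31.8% with CCF642. Of 17 other checkpoint and kinetochore genes, 9 fell and 4 rose with each compound. Those with the largest falls were SPC25 (-0.85 and -0.92) and SPC24 (-0.80 and -1.02) of the NDC80 complex and SPDL1 (-0.58 and -0.80), which brings dynein to kinetochores, and the largest rise was that of the kinetochore gene MIS12 (0.68 and 0.91).

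Of 18 other Polo-like, NEK and mitotic kinases, 6 fell and 5 rose with each compound, with medians of 0.0077 and 0.057. These shares, 33.3% and 27.8%, were near those of all genes tested, of which 27.9% were lower and 29.7% higher with CCF642-34 and 31.3% and 31.8% with CCF642. The mitotic kinases PBK (-0.77 and -0.93) and CDK1 (-0.65 and -0.83) were lower, whereas PLK2, a stress-induced relative of PLK1, was higher (0.66 and 1.17), as was the ciliary kinase NEK1 (0.53 and 0.55). Without DMSO replicate 1, DMSO replicate 2 or CCF642-34 replicate 1 the 6 falls with CCF642-34 became 3, and the 5 rises became 3 without DMSO replicate 2, without CCF642-34 replicate 2 or with library size alone.

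**Figure D3:**
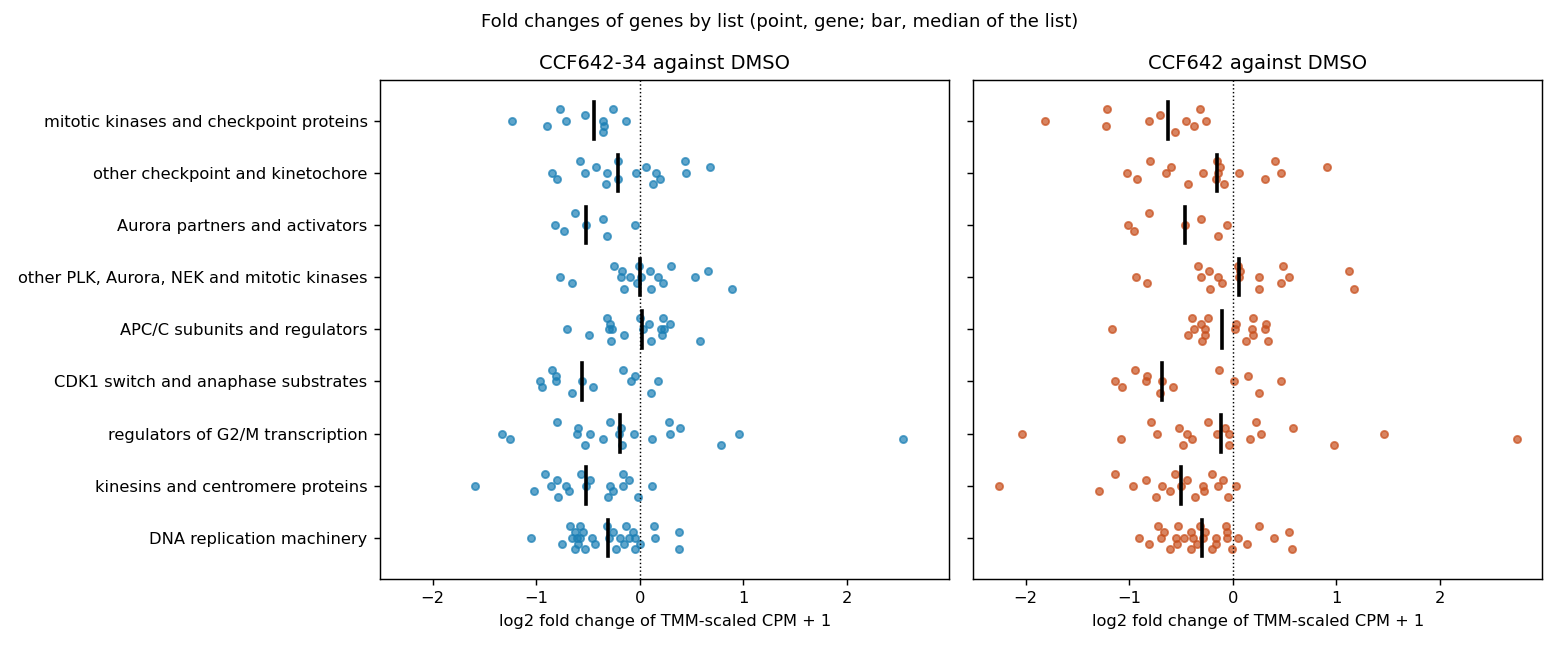
Log2 fold change (horizontal axis, TMM-scaled CPM + 1) of each gene, as a point, by list, with CCF642-34 on the left and CCF642 on the right and a vertical bar at the median of the list. The 10 mitotic kinases and checkpoint proteins lie wholly under 0, with medians of -0.44 and -0.63, whereas the lists of other kinases and of APC/C subunits spread to both sides.

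Upstream and downstream of the members the counts were uneven. They stand beside 27.9% of all genes tested called lower and 29.7% higher with CCF642-34, and 31.3% and 31.8% with CCF642. Of 13 genes of the CDK1 switch and its anaphase substrates, 9 fell with each compound, including cyclin B1 (CCNB1, -0.85 and -1.14) and separase (ESPL1, -0.95 and -1.07), which cuts cohesin. WEE1, which opposes the CDC25 phosphatases, was lower too (-0.96 and -0.70), and MASTL, the kinase that restrains the phosphatase PP2A, rose by 0.18 and 0.47. In that list 2 genes rose with CCF642-34 and 3 with CCF642, and with library size alone 0 and 1. The 2 rises became 1 without DMSO replicate 1 or either CCF642-34 library and 0 without DMSO replicate 2. Of 18 subunits and regulators of the anaphase-promoting complex, on which CDC20 acts, 7 fell and 7 rose with CCF642-34, and 8 fell and 7 rose with CCF642. The fall of its ubiquitin-conjugating enzyme UBE2C (-0.70 and -1.16) was larger than that of CDC20, and the core subunit ANAPC10 was higher (0.59 and 0.34). With library size alone the rises in this list were 4 and 1, and without DMSO replicate 1, DMSO replicate 2 or CCF642-34 replicate 2 the rises with CCF642-34 were 4.

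Of 19 mitotic kinesins and centromere proteins, 16 fell with CCF642-34 and 15 with CCF642, and 0 rose with either. Medians of this list were -0.51 and -0.50. Of all genes tested, 27.9% were called lower and 29.7% higher with CCF642-34, and 31.3% and 31.8% with CCF642. KIF20A, a kinesin of the central spindle that binds PLK1, had log2 fold changes of -1.59 and -2.26, below those of PLK1, and measured 80.6 and 78.5 CPM with DMSO, 22.4 and 26.1 CPM with CCF642-34 and 14.1 and 14.8 CPM with CCF642. CENPF (-1.02 and -1.14) and CENPA, the centromeric histone (-0.79 and -1.29), were lower as well.

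Genes listed as regulators of G2 and M phase transcription were read as RNA only, and no action on the members' promoters was measured. Of 20 such regulators, 12 fell and 7 rose with CCF642-34, and 9 fell and 7 rose with CCF642. Among all genes tested, 27.9% were called lower and 29.7% higher with CCF642-34, and 31.3% and 31.8% with CCF642. The regulators' share of rises was thus near that of all genes with each compound. FOXM1 measured 107 and 109.8 CPM with DMSO, 71.6 and 74.0 CPM with CCF642-34 and 70.1 and 71.0 CPM with CCF642, and changed by -0.48 with each compound. MYBL2, which encodes B-MYB, was not called (-0.053 with adjusted p = 0.267, and -0.032 with adjusted p = 0.507). The MuvB subunits split, with LIN9 lower (-0.18 and -0.24) and LIN37 (0.79 and 0.98), LIN52 (0.29 and 0.23) and LIN54 (0.39 and 0.58) higher. Among the parts of DREAM, RBL1 (-0.60 and -0.40) and RBL2 (-0.29 and -0.52), which encode p107 and p130, were lower, and E2F4 was lower with CCF642-34 (-0.17) but not called with CCF642 (-0.072, adjusted p = 0.236). Of the NF-Y subunits, NFYB was lower (-0.80 and -0.79) and NFYC higher (0.28 and 0.17). The cell cycle inhibitor p21 (CDKN1A) had the largest rise of the list, from 20.8 and 19.6 CPM with DMSO to 118 and 113 CPM with CCF642-34 and 134 and 123 CPM with CCF642 (2.54 and 2.74 on the log2 scale). MYC was lower (-1.25 and -2.04), from 452 and 465 CPM with DMSO to 181 CPM in both CCF642-34 libraries and 99.4 and 103 CPM with CCF642, so that it ran in the same order as PLK1. E2F7, a repressor, was lower with CCF642-34 (-0.20) and higher with CCF642 (0.27), and the difference itself was called (-0.47, adjusted p = 7.99e-09). What part any of these regulators had in the members' values was not tested.

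**Figure D4:**
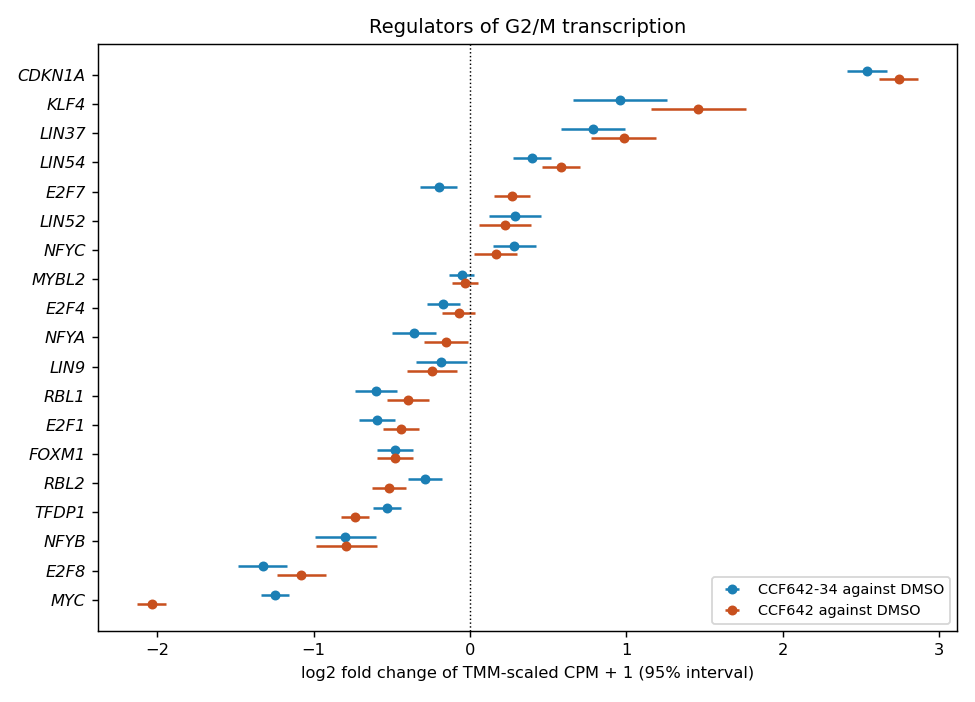
Log2 fold change against DMSO (horizontal axis, TMM-scaled CPM + 1, with 95% intervals) of 19 regulators of G2 and M phase transcription, with CCF642-34 in blue and CCF642 in orange. CDKN1A at 2.54 and 2.74 lies farthest to the right, MYC at -2.04 with CCF642 and E2F8 at -1.33 with CCF642-34 lie farthest to the left, FOXM1 lies at -0.48 with both compounds, and the intervals of MYBL2 include 0.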

How the data were processed

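Polyadenylated RNA of MM1.S cells was sequenced in 2 libraries for each of 3 groups (DMSO, CCF642 and CCF642-34, the compounds at 3 µM, all for 6 h). The authors deposited CPM values of 11048 genes. The submitters' processing notes name STAR, edgeR 3.24.3, limma 3.38.3 and hg19 without roles, and the counting tool, annotation and strand setting are not given in the sources used here. Every deposited value was a whole multiple of the CPM of 1 read within a tolerance of 0.01, which gave totals of 20567313 to 28459677 reads per library. Listed genes held 99.9% of these reads, and no gene stayed under 1.50 CPM in all 6 libraries, so lower genes had been removed before deposit. A table of the whole series held the same values and was not used.

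log2(TMM-scaled CPM + 1) of the 6 libraries was fitted with limma 3.58.1 (moderated test with trend, two-sided, 3 residual and 42.9 prior degrees of freedom) in R 4.3.3, with TMM factors of 0.957 to 1.05 from edgeR 4.0.16 and Benjamini-Hochberg adjustment over all 11048 genes. filterByExpr removed 0 genes. DESeq2 1.42.0 and edgeR's quasi-likelihood test on the recovered reads, other scalings, pseudocounts of 0.1 and 4, a mean CPM of at least 5, a replicate block, the compared groups alone and leaving out each library were alternatives. The fitting was tested on simulated data first. The members and lists were chosen with earlier results of these data known. Named genes are the members, the regulators, and in each other list the 3 largest falls and 2 largest rises per compound with adjusted p under 0.05 and a mean log2 CPM of at least 3, besides the 8 genes nearest to the members' median profile. Of the 20 regulators, 1 enters the counts and is not reported here by itself. Sequences are RefSeq's (GRCh38.p14), a later build than the one in the notes.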

Additional observations from a re-analysis of the deposited data

How the results depend on the processing

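The counts of members called lower, higher and at least 2-fold lower stayed within 1.5 times of the values given under all 135 combinations of count and alternative. Leaving out 1 library at a time kept every member's fold change against DMSO negative with each compound. The smallest falls were -0.13 for CDC20 with CCF642-34 and -0.22 for CDC25B with CCF642. In these fits the lone library of an arm is assumed to vary like the other groups. Of 450 member fold changes recomputed, 437 kept direction and call. The 8 that changed sign were differences between the compounds, none of them called where the sign changed: TTK was 0.0051 with library size alone, CDC25B was -0.00801 with DESeq2's size factors and -0.00791 with DESeq2 on reads, and over the omissions of 1 library BUB1B ran from -0.037 to 0.11, TTK from -0.076 to 0.0014, CDC25B from -0.030 to 0.030 (-0.020 without CCF642-34 replicate 1) and CDC25C from -0.018 to 0.36. Of the other 5, 4 are the CDC20 call with CCF642-34, lost without any library of its arms, and 1 is CDC25C between the compounds, called at that 0.36 without CCF642 replicate 2 with no change of sign. The cause was not tested. The median of the members ranged from -0.47 to -0.44 with CCF642-34, from -0.73 to -0.52 with CCF642 and from 0.11 to 0.26 between the compounds over the same omissions. Library size alone turned 48.4% of calls lower into 61.4% with CCF642-34, 49.6% into 65.2% with CCF642 and 52.2% into 38.2% between the compounds. The labels do not say whether same-numbered libraries were handled together. Deviations of same-numbered libraries correlated at -0.027, -0.058 and 0.070 over 10311 genes, and such low values do not exclude a pairing. With the replicate block 10, 10 and 5 members were called, with 3114 genes (28.2%) lower and 3308 higher with CCF642-34. In that fit 31.5% of all genes were called lower with CCF642, and 16.5% higher with CCF642-34 than with CCF642. Reads limit CDC25C most, with 218 in its lowest library.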

Other observations

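The DNA replication machinery, which is transcribed earlier in the cell cycle than the mitotic kinases, was lower as well. Of 30 such genes, 20 fell and 4 rose with CCF642-34 (median -0.31), and 19 fell and 4 rose with CCF642 (median -0.30). The shares over all genes tested were 27.9% lower and 29.7% higher with CCF642-34, and 31.3% and 31.8% with CCF642. The sliding clamp PCNA (-1.05 and -0.91) and the replicative helicase subunit GINS1 (-0.67 and -0.81) fell, while the origin licensing genes ORC1 (0.38 and 0.55) and CDC6 (0.38 and 0.57) rose. The 4 rises with CCF642-34 became 2 without DMSO replicate 2, without CCF642-34 replicate 1 or with library size alone. In the promoter windows of the replication genes TTTGAA stood in 1 of 27 (3.70%), against 4 of 8 members, 11 of 17 kinesins and centromere proteins (64.7%) and 6 of 11 genes of the CDK1 switch (54.5%). Over all listed genes with a window, the median log2 fold change with TTTGAA was -0.039 and without it 0.011 with CCF642-34, and -0.020 and -0.0056 with CCF642, so genes with these letters as a whole differed little from the rest.

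The genes whose profile over the 6 libraries lay nearest to the members' median profile were not mitotic genes of any list used here. By root mean square distance of centred log2 values, the 8 nearest were WDR12 (0.021) and DKC1 (0.026), which act in ribosome biogenesis, ATL3 (0.029), URI1 (0.031), STIM2 (0.032), DPY19L1 (0.033), KDM1A (0.033) and SLC16A1 (0.034). Among the members BUB1 was nearest at 0.058, with 85 genes nearer, and PLK1 farthest at 0.494, with 9403 genes nearer, against a median of 0.298 over all genes. Genes outside the lists thus lay nearer to the median profile than any member did. The distance is not scaled for the size of a change, and PLK1, the member with the largest fall, was farthest by it.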
